A study of Drosophila melanogaster with 2 samples.

Results

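Among the strongest 16.0% of the 30000 ChIP-seq peaks of Glass listed for replicate 1, 366 had no summit of any of the 30000 replicate 2 entries within 200 bp. The strongest peaks of a replicate are, here and below, as many of its highest entries as the authors kept in the optimal list of the study, and 4443 others of replicate 1 had such a summit. These 366 peaks are called the replicate 1 only peaks here. They were chosen on the 6 main chromosome arms by their signal value in replicate 1 and by the positions of replicate 2 summits, so both are descriptions below and neither is tested. The name covers the summits and not the regions: 277 of the 366 (75.7%) had a replicate 2 summit between 201 and 500 bp away. Most thus had a replicate 2 summit near by, which at 111 of the 277 also had a different replicate 1 summit within 200 bp. Of the 366, 51 (13.9%) had no replicate 2 summit within 1 kb.

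Both samples were whole Drosophila melanogaster pupae of 24 hour age, males and females together, from a line with a stable transgene for Glass fused at its C terminus to GFP. The labels give them as biological replicates 1 and 2 of the only group, with no other condition, and the peak lists of both were called against 1 shared control. Chromatin was broken by sonication to sizes between 200 and 800 bp. A free-text field calls both samples input controls, whereas the antibody field names gl, and both were treated as ChIP. Photoreceptors are a minority of the cells of a whole pupa, and the lists do not say in which cells a site was bound.

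Glass, the product of gl, is a zinc finger transcription factor needed for photoreceptor cells to differentiate in the fly eye. ChIP-seq recovers DNA fragments that lie near a tagged protein, and a peak caller marks where fragments pile up above a control. The summit is the single position with the highest pile-up, and the signal value is the strength score deposited with the peak. Each replicate list is ranked by its own signal values, so ranks and signal values are compared only within a list.

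The pairs of sequences below show what recurred across these peaks: letters around a replicate 1 summit beside letters around the nearest replicate 2 summit of the same region. Each is 61 bases centred on a summit, from the RefSeq copy of the dm6 assembly (release 6), plus strand, with G and C in capitals. The first 5 pairs belong to strong replicate 1 only peaks whose windows lay outside every annotated exon, noncoding RNAs included. Some stronger peaks are not shown, because a window met an exon, because no replicate 2 summit lay within 1 kb, or because of the chromosome arm they lie on. Rh5 was added after its values were seen. Each pair is named after the gene that holds the replicate 1 summit or, outside genes, after the nearest transcription start site. For CG43245 that site lay 31930 bp away, and for Rh5 1330 bp.
Wwox, replicate 1, chr2L:8000738-8000798: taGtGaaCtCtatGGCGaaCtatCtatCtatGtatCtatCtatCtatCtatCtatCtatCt
Wwox, replicate 2, chr2L:8000948-8001008: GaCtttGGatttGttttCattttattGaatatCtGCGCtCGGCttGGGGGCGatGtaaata
Dad, replicate 1, chr3R:17065174-17065234: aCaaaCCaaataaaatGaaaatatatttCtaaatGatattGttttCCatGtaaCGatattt
Dad, replicate 2, chr3R:17065399-17065459: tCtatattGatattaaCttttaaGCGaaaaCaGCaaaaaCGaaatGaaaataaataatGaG
CG12054, replicate 1, chr3R:31221577-31221637: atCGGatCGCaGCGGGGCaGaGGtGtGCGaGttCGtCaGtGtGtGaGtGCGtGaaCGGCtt
CG12054, replicate 2, chr3R:31221802-31221862: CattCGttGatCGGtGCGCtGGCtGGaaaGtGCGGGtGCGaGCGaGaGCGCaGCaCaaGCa
CG43245, replicate 1, chr3L:10739965-10740025: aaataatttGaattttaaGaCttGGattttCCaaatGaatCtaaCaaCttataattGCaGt
CG43245, replicate 2, chr3L:10740230-10740290: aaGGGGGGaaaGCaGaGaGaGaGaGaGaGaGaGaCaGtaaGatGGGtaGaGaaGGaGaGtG
comm3, replicate 1, chr3L:15625764-15625824: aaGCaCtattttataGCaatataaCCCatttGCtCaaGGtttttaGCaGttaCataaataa
comm3, replicate 2, chr3L:15625458-15625518: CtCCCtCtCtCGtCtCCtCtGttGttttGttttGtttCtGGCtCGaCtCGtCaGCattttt
Rh5, replicate 1, chr2L:12006793-12006853: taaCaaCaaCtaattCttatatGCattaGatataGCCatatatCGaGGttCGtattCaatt
Rh5, replicate 2, chr2L:12006547-12006607: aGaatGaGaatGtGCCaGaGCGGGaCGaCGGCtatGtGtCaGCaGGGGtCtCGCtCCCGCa

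In these windows G and C made up 22.95% at the CG43245 summit of replicate 1 and 50.8% at that of replicate 2. At comm3 they were 27.9% in replicate 1 and 45.9% in replicate 2, and at Rh5 27.9% and 60.7%, in the same order. The pairs at Wwox (31.1% and 39.3%), Dad (19.7% and 22.95%) and CG12054 (60.7% and 62.3%) were closer in composition. In each of the 6 pairs the replicate 1 window held less G and C, and over all pairs this was the case in most but not all, as given below.

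The replicate 1 only peaks were weaker than the other 4443 strongest peaks of replicate 1. Their signal values ran from 72.9 to 363.7 with a median of 91.5, against a median of 122.0 in the others, and their ranks ran from 306 to 4796 with a median of 3460.5, against 2311. Only 2 of the 500 strongest replicate 1 peaks were among them, then 13 of ranks 501 to 1000, 56 of ranks 1001 to 2000, 75 of ranks 2001 to 3000, 100 of ranks 3001 to 4000 and 120 of the 809 after rank 4000 (14.8%). The share with no replicate 2 summit within 200 bp went on rising down the list, being 7.61% for the strongest peaks, 28.6% from there to rank 15000 and 58.8% for the entries after it. The weakest of the 366 had rank 4796 and a signal value of 72.85, and the first peak outside the rank limit with no replicate 2 summit had rank 4814 and 72.66.

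The distance to the nearest replicate 2 summit had a median of 293 bp, with the middle 50% between 238 and 482.5 bp. It was 201 to 300 bp for 189 peaks (51.6%), 301 to 500 bp for 88 (24.0%), 501 to 1000 bp for 38 (10.4%) and over 1 kb for 51 (13.9%), of which 31 were over 2 kb away. The intervals of 211 peaks (57.7%, 95% Wilson interval 52.5 to 62.6) overlapped a replicate 2 interval, against 4438 of the other 4443. Of the 277 peaks within 500 bp, the replicate 2 summit had a different replicate 1 summit within 200 bp at 111, and none at 166. Just inside the limit, 22 peaks had a replicate 2 summit 201 to 210 bp away, and just outside it 21 had one at 191 to 200 bp. The lists place no summits closer than 199 bp to each other within a list. The nearest replicate 2 entry had a median rank of 7782.5, and it was among the strongest peaks of replicate 2 at 81 of the 189 nearest peaks and at 11 of the 51 farthest.

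**Figure D1:**
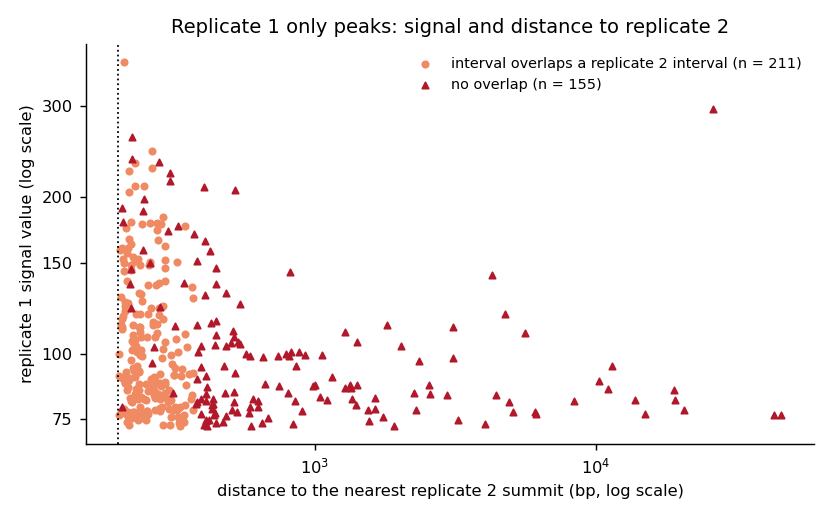
Signal value in replicate 1 (vertical log axis) against the distance to the nearest replicate 2 summit (horizontal log axis, bp), each point being 1 of the 366 replicate 1 only peaks, and the dotted line marking 200 bp. The 211 peaks whose interval overlaps a replicate 2 interval (circles) crowd beside the limit, and the peak at CG1227, with a signal value of 296.1 at 26123 bp, stands alone at the upper right.

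The strongest of the 366 lay in an intron of Wwox, which encodes an oxidoreductase with WW domains. Its signal value was 363.7 (rank 306 in replicate 1), and a replicate 2 summit of 184.6 (rank 667) lay 210 bp away. Dad, the inhibitory Smad of Dpp signalling, held 3 of the peaks. The strongest of them, in an intron, had 261.4 (rank 627), with a replicate 2 summit of 140.7 (rank 1138) at 225 bp, and the others had 178.6 and 92.6. The intron of shn, a zinc finger protein of the Dpp pathway, had 232.5 (rank 795), with a replicate 2 summit of rank 644 at 229 bp. At Wwox, Dad and shn the summits of both replicates were strong entries of their own lists, intronic in the same gene and a little over 200 bp apart. At Wwox and Dad, but not at shn, this replicate 2 summit also had a different replicate 1 summit within 200 bp.

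At Mef2, a regulator of muscle development, the intronic peak of 225.3 (rank 836) had a replicate 2 summit of 113.5 (rank 1687) 218 bp away, just outside the 200 bp limit. The GC content of the 101 bases around it was 34.7% at the replicate 1 summit and 55.4% at the replicate 2 summit. Peaks upstream of E(spl)m2-BFM and E(spl)m3-HLH, genes of the Notch-responsive E(spl) complex, had 233.7 and 209.8, with replicate 2 summits of ranks 3634 and 3627 at 279 and 405 bp. Upstream of hh, which encodes the Hedgehog ligand, a peak of 198.7 lay 7375 bp from the transcription start site (TSS), and its replicate 2 summit (rank 1961) at 247 bp had the same GC content, 39.6%. In an intron of grh, an epidermal transcription factor, a peak of 183.3 had its replicate 2 summit (rank 6187) at 289 bp. Others of the 20 strongest are named for heca (215.4), CG10365 (210.1), CG6287 (206.9), CG10584 (205.3) and CG44623 (191.1), with replicate 2 summits between 207 and 520 bp away. The one named for CG44623 lay outside genes, 9688 bp from its TSS.

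At other strong peaks the replicate 2 entry was weak. The peak 1330 bp upstream of Rh5, which encodes a blue-sensitive opsin of R8 photoreceptors, had 188.5 in replicate 1 (rank 1183), while the replicate 2 summit 246 bp away had 17.8 (rank 26268 of 30000). CG44838 had 245.2 (rank 713) with a replicate 2 entry of rank 14036 at 265 bp. The nearest replicate 2 entry could also be among the very strongest. It had rank 34 at 230 bp from the peak of 210.2 (rank 971) upstream of Msr-110. It had rank 5 at 201 bp from a peak of rank 3027 at yip2, named after its values were seen. The replicate 2 entry at Msr-110 also had a different replicate 1 summit within 200 bp. The limit on distance thus joined peaks whose nearest replicate 2 entry was strong with peaks whose nearest entry was weak.

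CG1227 stood apart from the other strong peaks. Its peak lay 85 bp downstream of the TSS, in the UTR, had 296.1 (rank 478), and had no replicate 2 summit nearer than 26123 bp, yet a peak of the authors' optimal list, with rank 631 there, lay within 200 bp. The second strongest of the 51 peaks over 1 kb from replicate 2 lay 239 bp upstream of CG9338, with 142.2 (rank 1854), 4251 bp from a replicate 2 summit and with no optimal peak. Its 61 bases around the summit are shown as those of the strongest isolated peak outside an exon.
CG9338, replicate 1, chr2L:20864946-20865006: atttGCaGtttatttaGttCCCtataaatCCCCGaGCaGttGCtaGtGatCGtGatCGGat
Other isolated peaks, named after their values were seen, lay 7003 bp upstream of Nlg3 (119.6), in an intron of bab1 (113.8), 128 bp upstream of bnl, the FGF ligand of tracheal branching (85.9, at 11007 bp, with the highest GC content of the 366, 63.4%), and 4298 bp downstream of the TSS of Optix, a homeodomain gene of eye specification (76.7, at 6132 bp). The 51 isolated peaks had a median signal of 83.6, below the median of 103.6 of the peaks at 201 to 300 bp.

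The main feature that the rule did not use was base composition. In the 101 bases around the summit, the median GC content of the replicate 1 only peaks was 29.7%, with the middle 50% between 24.8% and 35.6%, against 34.7% in the other strongest replicate 1 peaks. The peaks found by the same rule from the other side, 277 of the strongest replicate 2 peaks with no replicate 1 summit within 200 bp, had a median of 50.5%, and the other strongest replicate 2 peaks 42.6%. The arms have 42.2%. GC content was under 40% at 85.5% of the replicate 1 only peaks (95% Wilson interval 81.5 to 88.8), 68.5% of the other strongest replicate 1 peaks and 10.8% of the replicate 2 only peaks. These are descriptions of peak lists with no test of the difference between them, and peaks are not replicates.

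The lists as wholes differed the same way. The strongest peaks had a median GC content of 33.7% in replicate 1 and 43.6% in replicate 2, and all 30000 entries 40.6% in replicate 1 and 46.5% in replicate 2. GC content thus moved with the replicate as well as with the choice of these peaks, and the part that library preparation, depth or any other difference between the replicates had in it was not tested. Within replicate 1 the gap was present in each range of ranks: the median was 26.7% in the replicate 1 only peaks and 31.7% in the others at ranks 1 to 1000, and 29.7% and 39.6% after rank 4000. In between it was 29.7% against 32.7%, 28.7% against 34.7% and 29.7% against 36.6% for each further 1000 ranks.

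Within a region, the replicate 1 summit was usually at the poorer sequence. Of the 315 replicate 1 only peaks with a replicate 2 summit within 1 kb, GC content was lower at the replicate 1 summit in 280, higher in 29 and equal in 6. The medians were 29.7% at the replicate 1 summits and 48.5% at the replicate 2 summits, and the median difference, replicate 1 minus replicate 2, was -17.8 percentage points (middle 50% from -25.7 to -9.90). At E(spl)m2-BFM the values were 17.8% in replicate 1 and 65.3% in replicate 2, at Hnf4, a nuclear receptor gene, 17.8% and 72.3%, and at grh 20.8% and 65.3%. CG12054 (50.5% and 55.4%) was a peak rich in GC in both. FASN1, the fatty acid synthase gene, went the other way, with 50.5% in replicate 1 and 38.6% in replicate 2, and so did Raf, a kinase of the EGFR pathway, with 52.5% and 41.6%.

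The difference grew with the distance between the summits up to 500 bp, also among the peaks below the 200 bp limit. Windows around summits up to 100 bp apart share bases, which by itself limits the difference there. For the strongest replicate 1 peaks with a replicate 2 summit within 20 bp, the medians were 34.7% at both. At 51 to 100 bp they were 33.7% at the replicate 1 summit and 38.6% at the replicate 2 summit, and at 101 to 200 bp 31.7% and 44.6%. In the replicate 1 only peaks they were 30.7% and 47.5% at 201 to 300 bp, 28.7% and 49.5% at 301 to 500 bp, and 26.7% and 43.1% at 501 to 1000 bp. At 301 to 500 bp the replicate 1 summit had the lower value in 86 of 88 pairs. Starting from the strongest replicate 2 peaks, the replicate 1 summit was again the poorer in GC. At 201 to 300 bp the medians were 51.5% at the replicate 2 summit and 37.6% at the nearest replicate 1 summit. The replicate 2 summit was higher in 122 of 137 pairs. The 200 bp limit therefore took one end of a graded shift, and at the limit itself the medians were 32.2% (201 to 210 bp) and 28.7% (191 to 200 bp).

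**Figure D2:**
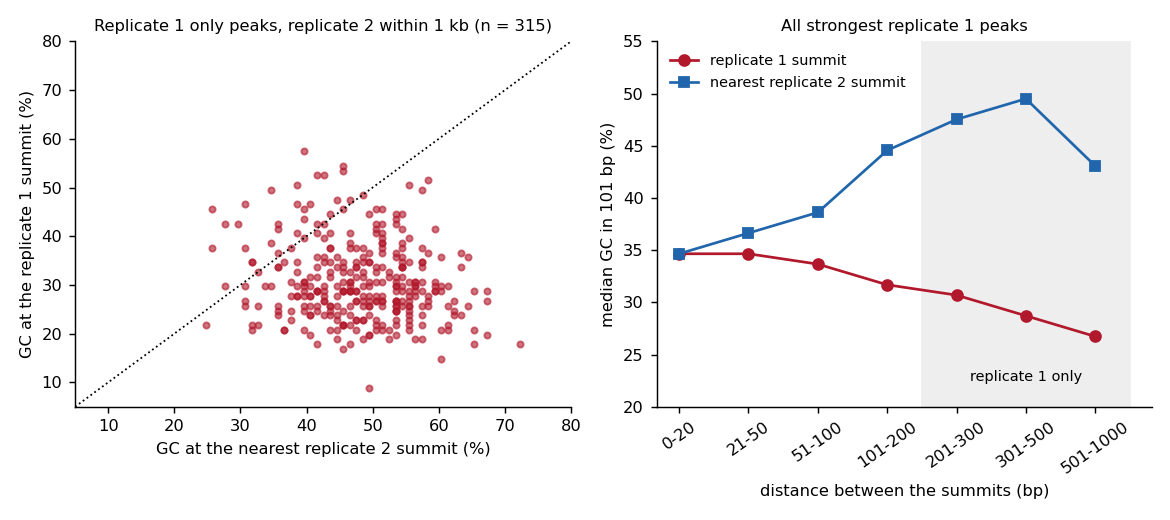
Left, GC content (%) in the 101 bases around the replicate 1 summit against that around the nearest replicate 2 summit, for the 315 replicate 1 only peaks with one within 1 kb, 280 of them below the dotted line of equal values. Right, median GC content (%) at the summits of replicate 1 (circles) and at the nearest summits of replicate 2 (squares) by the distance between them (bp), for all of the strongest replicate 1 peaks with one within 1 kb, with the replicate 1 only peaks shaded. The medians were equal at 0 to 20 bp, where paired windows share most of their bases, and 28.7% and 49.5% at 301 to 500 bp.

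The mean GC content along the 277 regions with a replicate 2 summit within 500 bp, oriented so that replicate 2 lies to the right and read in windows of 51 bases, was 31.1% at the replicate 1 summit. It was 47.3% at 200 bp towards the replicate 2 summit and 41.9% at 200 bp away from it. Around the other 4443 strongest replicate 1 peaks it was 35.3% at the summit and 45.7% at 200 bp on the side of the replicate 2 summit, so a dip at the summit was not particular to the replicate 1 only peaks. Around the 197 replicate 2 only peaks within 500 bp of a replicate 1 summit, it was 51.4% at their own summit and 40.2% at 200 bp towards the replicate 1 summit.

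**Figure D3:**
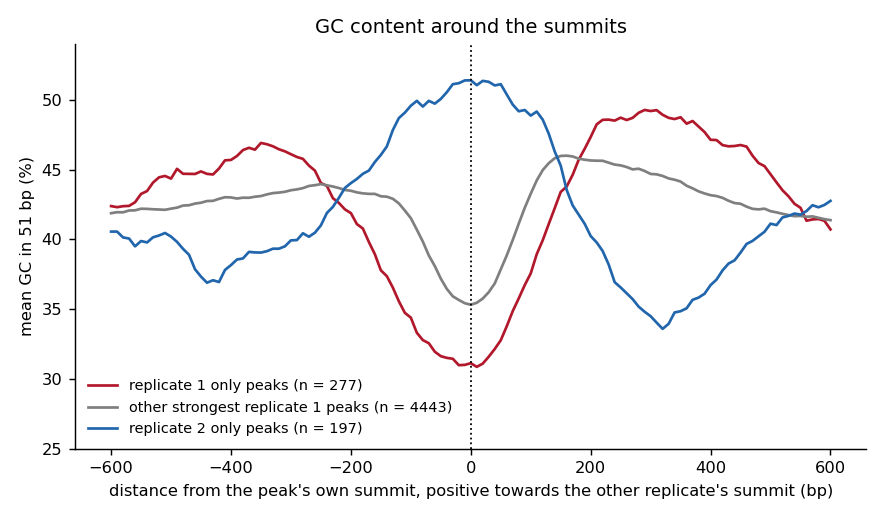
Mean GC content (%) in windows of 51 bases against the distance from the peak's own summit (bp), positive towards the summit of the other replicate, for the replicate 1 only peaks with a replicate 2 summit within 500 bp (n = 277), the other strongest replicate 1 peaks (n = 4443) and the replicate 2 only peaks with a replicate 1 summit within 500 bp (n = 197). The replicate 1 only peaks are low around their summit, with 31.1% on it, and the replicate 2 only peaks are high around theirs, with 51.4% on it.

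The same contrast appeared in short words. Of 2080 6-mers, strands joined, 133 (6.39%) were more frequent within 50 bp of the 366 summits than in windows 500 bp to one side, and 151 (7.26%) were less frequent, called by an exact McNemar test at a Benjamini-Hochberg adjusted p below 0.05 with a minimum fold of 1.5. Among the 133, 34 had no G or C and 121 had at most 1, and among the 151, 118 had at least 4. In the other strongest replicate 1 peaks 86 (4.13%) were more and 493 (23.7%) less frequent, and in the replicate 2 only peaks 23 (1.11%) were more and 47 (2.26%) less frequent. The numbers of peaks differ, so these counts are not compared between sets. Of the 133, 52 were among the 86, that is 39.1% of the first list and 60.5% of the second. With windows 1000 bp away 70 6-mers were more frequent. In the 57 summit windows free of soft-masked bases, and in the 51 peaks over 1 kb from replicate 2, none was.

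Summed by composition, the 36 6-mers with no G or C were 2.51 times as frequent at the summits of the replicate 1 only peaks as in their flanks, 1.48 times in the other strongest replicate 1 peaks and 0.374 times in the replicate 2 only peaks. For the 36 made of G and C alone the ratios were 0.143 in the replicate 1 only peaks, 0.592 in the other strongest replicate 1 peaks and 2.08 in the replicate 2 only peaks. The order of the 3 sets turned over between 2 and 3 G or C letters.

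**Figure D4:**
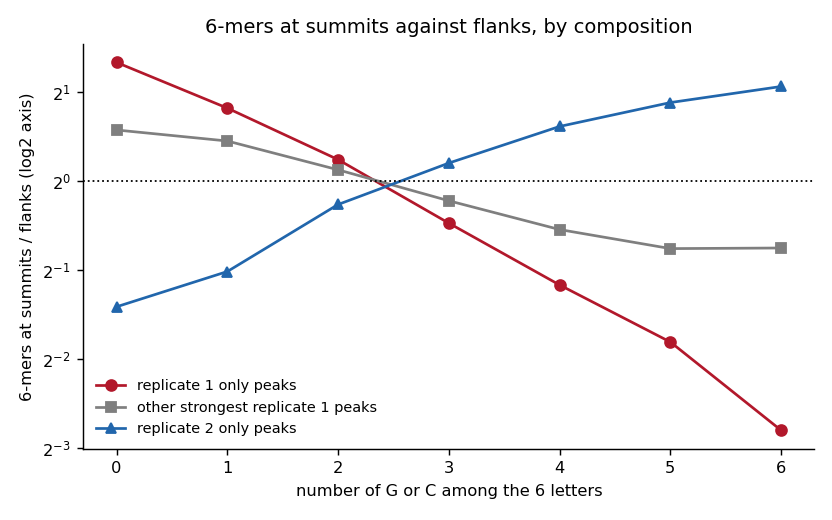
Frequency of 6-mers within 50 bp of summits divided by that in flanks 500 bp away (vertical log2 axis), summed by the number of G or C letters in the 6-mer, for the replicate 1 only peaks, the other strongest replicate 1 peaks and the replicate 2 only peaks. The line of the replicate 1 only peaks falls with each further G or C, to 0.143, and that of the replicate 2 only peaks ends at 2.08.

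The 6-mer with the largest fold was ATATTA, in 91 of 366 summit windows and 12 flanks (7.58-fold, exact McNemar adjusted p = 4.17e-14), against 1.73-fold in the other strongest replicate 1 peaks. ATATTA was at 24.9% of summits and 3.28% of flanks here, and at 16.0% of summits and 9.23% of flanks in those others. The folds thus differed through the flanks as well as the summits. Flanks with TTTAAA and TATAAA were also fewer here (5.19% and 6.28%) than in those others (10.1% and 12.6%). Next to other words without G or C (TTTAAA at 5.05-fold, TATAAA at 4.65-fold, AATATA at 4.15-fold and TATTAA at 4.0-fold) stood some with 2 such letters: ATATCC in 18 summits and 3 flanks (exact McNemar adjusted p = 0.0118), AAGTCT in 20 and 4 (5.0-fold, p = 0.0178 by the same test), and AACTAC in 26 and 6 (4.33-fold, p = 0.00942). ATATCC was at 0.872-fold in the other strongest replicate 1 peaks and did not pass there, and AAGTCT was at 15 summits and 3 flanks of the replicate 2 only peaks, without passing (exact McNemar adjusted p = 0.116). No test of the difference between sets was made for any word.

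TACTAA was found at 32 summits (8.74%) and 8 flanks (2.19%), a 4.0-fold difference (exact McNemar adjusted p = 0.00380), against 1.77-fold in the other strongest replicate 1 peaks. In those others it was at 6.12% of summits and 3.47% of flanks. Both it and ATATTA are shown at the strongest peaks that hold them, outside exons, in 61 bases of the plus strand with the word, or its reverse complement, in capitals.
hh, TACTAA, chr3R:23149251-23149311: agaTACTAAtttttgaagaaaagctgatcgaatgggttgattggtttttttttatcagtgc
Osi24, TACTAA, chr3R:6198519-6198579: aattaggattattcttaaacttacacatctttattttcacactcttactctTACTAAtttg
Msr-110, ATATTA, chr3L:5577674-5577734: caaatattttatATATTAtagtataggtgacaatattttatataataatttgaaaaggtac
CG12680, ATATTA, chrX:5020184-5020244: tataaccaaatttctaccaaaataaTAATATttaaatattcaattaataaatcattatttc
These words lie in sequence that is poor in G and C throughout, from 13.1% at CG12680 to 31.1% at hh, and a match describes the letters only. The summit named for CG12680 lay outside genes, 22773 bp from the TSS of that gene, the nearest one.

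Of the other words looked for by name, TATTTA (2.84-fold, exact McNemar adjusted p = 1.30e-10), ATATAT (2.95-fold) and AAAAAA (1.69-fold) were also more frequent at the summits. In the other strongest replicate 1 peaks the folds were 1.45, 1.53 and 1.62 in the same order. ATATAT and AAAAAA were called more frequent there too, and TATTTA missed the call there only by the minimum fold of 1.5 (exact McNemar adjusted p = 5.60e-16). TAATTA, the core of homeodomain sites, was at 40 summits and 19 flanks (2.11-fold, exact McNemar adjusted p = 0.0585), and AGATAA, the word of GATA factors, at 33 and 19 (1.74-fold, p = 0.214 by the same test). GAGAGA was at 17 summits and 24 flanks (0.708-fold), ACACAC at 19 and 38 (0.500-fold), AGGTCA at 7 and 1, and AAAGTC at 17 and 20. CAGGTA was at 0.833-fold, TATCGA at 0.867-fold, CACGTG at 1 summit and 3 flanks, CAGCTG at 0.588-fold, TGACTC at 1.0-fold, AACCGG at 0.444-fold and CGATAA at 0.833-fold. None of these 11 or of TAATTA and AGATAA passed in either direction, which at 366 windows does not show equal frequency.

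By position in the annotation, 144 of the 366 (39.3%, 34.5 to 44.4 as the 95% Wilson interval) were at most 1 kb from the TSS of a protein-coding gene, against 44.8% (43.3 to 46.2) of the other strongest replicate 1 peaks and 47.3% (41.5 to 53.2) of the replicate 2 only peaks. Introns more than 1 kb from a TSS held 153 (41.8%, 36.9 to 46.9), against 36.5% of the other strongest replicate 1 peaks and 32.5% of the replicate 2 only peaks. Outside genes and more than 1 kb from a TSS were 68 (18.6%), against 17.5% and 15.2% in the same order. Exons farther than 1 kb from any TSS held 1 (0.273%), against 1.19% and 5.05%. At any distance from a TSS, 133 (36.3%) lay outside genes, against 32.6% and 26.7%, and 211 (57.7%) in introns, against 55.1% and 50.9%. The intervals for TSSs and introns overlap between the replicate 1 only and the other strongest replicate 1 peaks, and a ranking of the sets was not tested.

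**Figure D5:**
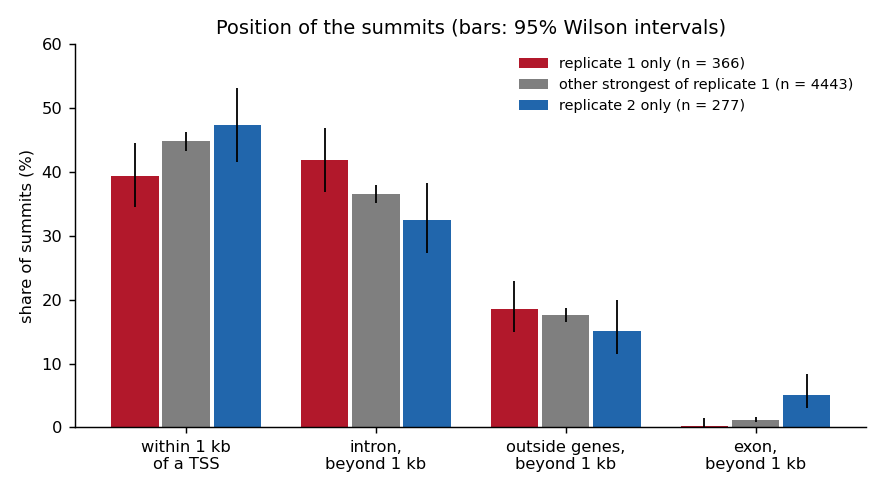
Share of summits (%) by position, for the replicate 1 only peaks (n = 366), the other strongest replicate 1 peaks (n = 4443) and the replicate 2 only peaks (n = 277), with lines for 95% Wilson intervals, which cover counting error only. Introns more than 1 kb from a TSS hold 41.8%, 36.5% and 32.5% of the sets as listed, and positions within 1 kb of a TSS 39.3%, 44.8% and 47.3%.

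Of the 144 peaks near a TSS, 111 (77.1%, 95% Wilson interval 69.6 to 83.2) lay upstream of it, against 63.0% (60.9 to 65.1) of those of the other strongest replicate 1 peaks and 51.9% (43.4 to 60.3) of those of the replicate 2 only peaks. Their median position was 202 bp upstream, at -202, against -92 in the other strongest replicate 1 peaks and -9 in the replicate 2 only peaks. In the 108 of them with a replicate 2 summit within 500 bp, 86 of the replicate 1 summits and 66 of the replicate 2 summits were upstream. The medians were -245.5 in replicate 1 and -89.5 in replicate 2. Pair by pair, the replicate 2 summit lay further downstream in 61 of the 108 and further upstream in 47. It was the nearer to the TSS in 55. In 25 the replicate 1 summit was upstream of the TSS and the replicate 2 summit downstream, and pairs in the other order were not counted. Over all 277 such pairs, 16 replicate 1 summits and 31 replicate 2 summits lay in a UTR, 1 and 7 in a coding exon, 168 and 161 in an intron, and 92 and 78 outside genes, in the same order. The replicate 2 summits were thus more often in exons, but most pairs had both summits in an intron or both outside genes.

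Along the chromosomes, the replicate 1 only peaks made up 67 of 876 strongest replicate 1 peaks on 2L, 54 of 851 on 2R, 99 of 1122 on 3L, 88 of 1073 on 3R and 51 of 872 on X. On the small chromosome 4 they were 7 of 15 (46.7%), whereas 1 of 17 strongest replicate 2 peaks there was replicate 2 only. The 7 lay at Sox102F and myo, which encodes a TGF-beta ligand, with 2 each, and at pan, the TCF of Wnt signalling, ci, the effector of Hedgehog signalling, and CG31999, with signal values from 76.0 to 97.7. Their median GC content, 37.6%, was not below that of the other 8 (36.1%), and the chromosome itself has 35.2%. The density on X over that on 2L, 2R, 3L and 3R was 0.767 for the replicate 1 only peaks (95% exact interval 0.558 to 1.03), 1.05 for the other strongest replicate 1 peaks (0.974 to 1.13) and 0.785 for the replicate 2 only peaks (0.547 to 1.10).

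The list from the pooled replicates showed where the summit fell once the reads of both were joined. Pooled and optimal lists contain the reads of replicate 1, so they are not independent of the choice. A pooled summit lay within 200 bp of 334 of the 366 (91.3%), with a median pooled rank of 6161, against 2210.5 for the other strongest replicate 1 peaks. Of the 277 with a replicate 2 summit within 500 bp, a pooled summit lay within 100 bp of the replicate 1 summit alone in 118, of the replicate 2 summit alone in 31, of each of them in 121 and of neither in 7. A peak of the optimal list, which the authors kept by the irreproducible discovery rate, lay within 200 bp of 117 (32.0%, 95% Wilson interval 27.4 to 36.9) of the replicate 1 only peaks, 87.8% of the other strongest replicate 1 peaks and 17.7% of the replicate 2 only peaks. The sets differ in rank, and these shares were not matched for it. Among the strongest 8.01% of replicate 1, 86.3% of the 95 replicate 1 only peaks had one. The 117 matched 115 optimal peaks, 2.39% of that list, the highest of them being the optimal peak of rank 8 at yip2. Conversely 90 optimal peaks had no replicate 2 summit within 200 bp and 39 no replicate 1 summit. The share with an optimal peak was 46.6% at 201 to 300 bp, 17.0% at 301 to 500 bp, 10.5% at 501 to 1000 bp and 19.6% beyond. Median replicate 1 ranks also differed, being 2895, 3740, 3561 and 3954 in the same order.

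Counted by genes, 337 of 13945 protein-coding genes (2.42%) had a replicate 1 only summit in their span extended by 1 kb to each side, against 3053 (21.9%) with another of the strongest replicate 1 summits and 297 (2.13%) with a replicate 2 only summit. Of the 337, 313 also held an entry of replicate 2, 230 one of its strongest peaks, 208 another of the strongest replicate 1 summits and 254 an optimal summit. The 24 genes with no replicate 2 entry at all included CG1227, CG9338, myo and CG31999. Of the 366 summits, 64 lay in no such extended span. The genes were long, with a median of 11.9 kb, against 4.46 kb for those with another of the strongest replicate 1 summits and 2.17 kb for all. In 36 genes there were 2 or more: 5 at mtgo, which spans 118.2 kb, 4 at tara, 3 each at Dad, Abl, a tyrosine kinase gene, and nkd, an inhibitor of Wnt signalling. Genes with 2 included foxo, a transcription factor of the insulin pathway, Antp, a Hox gene, mam, a coactivator of Notch, Smr, a corepressor, and mbc, which acts in myoblast fusion.

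At tara the 4 peaks had 176.6, 163.0, 110.7 and 78.1 in replicate 1, and the nearest replicate 2 summits, 222 to 511 bp away, had ranks of 22824, 7308, 1419 and 1366 in the same order. The 5 at mtgo had 75.9 to 123.5, with replicate 2 summits 238 to 1415 bp away, of which 1, at 808 bp, had rank 43. The gl gene had none of the 366 in its extended span, the nearest being 424346 bp away, and 1 other of the strongest replicate 1 summits.

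In 16 lists of tissue markers and pathways, 23 of 265 genes (8.68%) had a replicate 1 only summit, against 2.42% of all genes. The lists hold many long regulatory genes and were not matched for length, so the gap is read no further. Of 23 ecdysone response genes 5 had one, the 4 with the strongest being ImpE2 (105.8), Blimp-1, a zinc finger repressor (99.4), and the nuclear receptor genes Hr4 (93.0) and Hr38 (87.3), while 19 had one of the strongest summits of replicate 1, these included, and 15 one of replicate 2. Of 23 Notch and EGFR genes 4 had one, namely aos and kek1, inhibitors of EGFR (103.3 and 94.9), Raf (99.8) and Ser, a Notch ligand (89.3). Of 17 genes of Wnt, Dpp and Hedgehog signalling 3 had one, namely Dad, tkv, a Dpp receptor (100.8), and nkd (92.4), and of 14 insulin and growth genes also 3, foxo (146.6), Mnt, an antagonist of Myc (108.7), and InR, the insulin receptor (99.5).

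Of 37 genes of eye specification and photoreceptors, 1 had a replicate 1 only summit (2.70%, near the 2.42% of all genes), although 14 had one of the strongest summits of replicate 1 and 16 one of replicate 2. It was the gene so (sine oculis), a homeodomain gene of eye specification, with 73.1 (rank 4770), 441 bp upstream of the TSS, and a replicate 2 summit of rank 16847 at 307 bp. The peaks near Rh5 and Optix lay outside the extended spans. Of 27 muscle genes 2 had one, Mef2 and kirre, an adhesion gene of myoblast fusion (113.6), of 18 epidermis and trachea genes 2, grh and bnl, and of 20 genes of JNK and stress 1, foxo. There was 1 each in fat body (FASN1, 87.0, of 15), blood cells (ush, a cofactor of GATA factors, 74.4, of 12) and gut (Hnf4, 164.7, of 14). None of 17 neuronal, 12 glial, 12 germ line, 5 GATA factor and 8 clock genes had one, while between 3 and 6 of each had one of the strongest replicate 1 summits. No list was tested, and counts this small set no list apart.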

How the data were processed

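The members, gene lists and words were chosen with earlier results of these data known. The signal values and the −log10 q values are those the authors deposited in the dm6 peak lists, 30000 entries per replicate and for the pool. Per the deposited text notes, each replicate was set against a shared control. The sources used here do not give the aligner, peak caller or read numbers. Depth is therefore unknown, and intervals cover counting error only. The highest −log10 q value of the replicate 1 list, 4.11, was shared by 6449 entries, hence ranking by signal.

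Entries on 2L, 2R, 3L, 3R, 4 and X were ranked by deposited signal value, the first 4809 being the strongest, and positions counted from 1. Genes came from Ensembl release 115 (BDGP6.54). Windows held 101 bases, and flanks lay 500 bp to one side. The two-sided exact McNemar test, with Benjamini-Hochberg adjustment over 2080 6-mers, was tried on 366 genomic windows away from the summits. It recovered 20 of 20 6-mers written into them. In a separate run on unaltered windows it called 0, and other calls beside the 20 were not counted. P-values describe windows of 1 list, not the spread between animals. Other shares and medians were not tested. Of 273 listed symbols 6 had no match and 2 named a gene listed under another symbol, which left 265. Dl was matched as Delta.

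Named are genes at the 20 strongest members, up to 20 with 2 or more, up to 4 per list, gl, and those with sequences, and up to 12 called 6-mers by fold, besides fixed ones. Python 3.11.15, NumPy 2.4.6, pandas 2.3.3, SciPy 1.17.1 and Matplotlib 3.10.9 were used. Alternatives changed distance, overlap, number of peaks, TSSs, windows and repeats.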

Additional observations from a re-analysis of the deposited data

How the results depend on the processing

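The lower GC content of the replicate 1 only peaks beside the other strongest replicate 1 peaks held under all 4 other ways of choosing them (28.7% to 30.7%, against 32.7% to 34.7%). Their own median became 31.3% in windows of 100 bp to each side. The number of peaks was 822 with a limit of 100 bp, 89 with 500 bp, 160 by overlap of intervals, 95 among the strongest 8.01% of the list, and 51 beyond 1 kb, a choice added after seeing the data. The share near a TSS was 32.5% within 500 bp, 47.8% within 2 kb and 45.1% with all gene types. The share in introns more than 1 kb from a TSS was 34.8% with a limit of 500 bp and 27.5% in the peaks over 1 kb from replicate 2. The share with an optimal peak was 50.5% with a limit of 100 bp, 15.7% with 500 bp, 86.3% among the strongest 8.01% and 19.6% beyond 1 kb. The density on X was 0.431 of that on the autosomes beyond 1 kb. The number of more frequent 6-mers was 203 with a limit of 100 bp, 4 with 500 bp, 27 by overlap, 16 among the strongest 8.01%, 209 in wider windows, 70 with flanks at 1000 bp, and 0 in the 57 windows free of soft-masked bases and in the 51 peaks beyond 1 kb (at an unadjusted p under 0.05, 26 and 9). With fewer peaks the test has fewer windows, and other causes were not tested. With the flank on the other side, also added after seeing the data, it was 141.

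No pairing of samples across conditions was possible because the 2 replicates belong to 1 group. Leaving out a replicate could not be done, since both define the members.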
